A study of Mus musculus with 6 samples.

Results

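The genes that write, erase and read cytosine methylation were followed in the cerebral cortex of aging mice. They were chosen by symbol, and all 9 were found among the 55421 genes of the deposited tables: Dnmt1, Dnmt3a and Dnmt3b, which methylate cytosine, Uhrf1, which guides Dnmt1, Tet1, Tet2 and Tet3, which oxidize the methyl group, and Mbd1 and Mbd2, which bind it. RNA was sequenced from the cortex of male C57BL/6J mice of WT genotype, 3 at 6 months (mice 10, 11 and 17) and 3 at 24 months (mice 2, 4 and 5). Each library stands for 1 mouse. Mice of both ages ate the same standard diet and were under isoflurane before their death. Libraries were made from 10 ng of total RNA of ground whole cortex, so each value is a mean over neurons, glia, vessels and blood, and in such bulk tissue fewer cells of a type and less RNA per cell cannot be told apart. The question was how the RNA levels of these genes at 24 months compared with those at 6 months.

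In mammals, methyl groups sit mostly on cytosine followed by guanine (CpG). Dnmt3a and Dnmt3b set new methyl groups, whereas Dnmt1 copies them onto the new strand after replication, where Uhrf1 binds hemimethylated sites and brings Dnmt1 to them. Tet enzymes oxidize the methyl group to a hydroxymethyl group, which is abundant in neurons, and further oxidized forms are excised by base excision repair. Methyl-CpG-binding proteins such as Mbd1 and Mbd2 bring repressor complexes to methylated DNA. Neurons do not divide, yet they keep Dnmt1 and Dnmt3a RNA, and Dnmt3a sets much of their methylation after birth.

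The start regions of Dnmt1 and Uhrf1, the 2 members that passed the test described further on, are shown here for their CpG content. RefSeq promoter windows (GRCm38.p6, 250 bases before to 50 after a start) were found for 7 of the 9 members, 12 windows in all, with 2 to 57 CpG each against a median of 7 over 32851 windows. Dnmt1 had both a window with 2 CpG at its outermost start and one with 33 CpG further inside the gene, and Uhrf1 had a window with 33 CpG at its inner start. Each gene had 1 more window, with 12 CpG. The counts per gene do not tell which start the RNA came from. These 3 windows read as follows, 5′ to 3′ on the strand of the gene, with each CpG in capitals.
Dnmt1, outermost start, chr9:20959839-20960138, minus strand: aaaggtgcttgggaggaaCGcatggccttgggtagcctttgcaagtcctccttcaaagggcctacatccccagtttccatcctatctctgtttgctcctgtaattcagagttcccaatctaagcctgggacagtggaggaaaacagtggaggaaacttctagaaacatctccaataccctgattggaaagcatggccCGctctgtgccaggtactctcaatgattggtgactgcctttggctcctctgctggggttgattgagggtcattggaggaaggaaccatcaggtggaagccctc
Dnmt1, inner start, chr9:20952574-20952873, minus strand: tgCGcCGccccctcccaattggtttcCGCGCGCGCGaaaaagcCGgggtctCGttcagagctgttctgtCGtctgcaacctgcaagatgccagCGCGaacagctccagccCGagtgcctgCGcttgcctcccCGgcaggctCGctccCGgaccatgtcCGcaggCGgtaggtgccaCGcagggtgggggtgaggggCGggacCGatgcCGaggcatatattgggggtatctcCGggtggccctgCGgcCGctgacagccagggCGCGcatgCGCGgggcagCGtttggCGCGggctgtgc
Uhrf1, inner start, chr17:56304063-56304362, plus strand: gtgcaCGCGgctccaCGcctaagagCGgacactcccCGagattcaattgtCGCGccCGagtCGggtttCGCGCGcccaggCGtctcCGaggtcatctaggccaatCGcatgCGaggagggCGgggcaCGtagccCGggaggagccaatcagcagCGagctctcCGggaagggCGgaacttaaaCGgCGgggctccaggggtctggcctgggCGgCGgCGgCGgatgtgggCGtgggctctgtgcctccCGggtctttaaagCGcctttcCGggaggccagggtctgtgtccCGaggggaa
Words that E2F factors, which drive genes of the S phase, are known to bind were searched on both strands (TTTCGCGC, TTTGGCGC, TTTCCCGC and TTTGCCGC). The inner window of Dnmt1 held TTTGGCGC at bases 284 to 291 and TTTCGCGC on the other strand at bases 32 to 39, and that of Uhrf1 held TTTCGCGC at bases 66 to 73. None of the other 10 member windows held 1 of these words, and 2.26% of all windows did. A match in letters says nothing of binding in these cortices.

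Levels of different genes were compared in TPM, counts divided by gene length and scaled to 1 total per library. Mbd1 had the highest level of the 9, with a mean of 26.6 TPM ± 2.71 (SD, n = 6), followed by Dnmt3a with 22.2 TPM ± 1.75 and Dnmt1 with 21.1 TPM ± 2.56. Tet2 came next with 11.2 TPM ± 1.53, then Tet3 with 8.28 TPM ± 1.22, Mbd2 with 6.20 TPM ± 0.775 and Tet1 with 3.06 TPM ± 0.609. Uhrf1 and Dnmt3b were lowest, with 0.431 TPM ± 0.163 and 0.426 TPM ± 0.137. Among all 55421 genes, Mbd1 held rank 5801 and Dnmt3b rank 24542 by mean TPM. The ranges of neighbours in this order did not overlap between Dnmt1 and Tet2, between Mbd2 and Tet1, and between Tet1 and Uhrf1, and overlapped in the other 5 pairs. Within single libraries Mbd1 stood above Dnmt3a in 6 of 6, and Uhrf1 above Dnmt3b in 3 of 6. Dnmt3a stood above Dnmt1 in 1 of 3 young and 3 of 3 old mice.

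**Figure D1:**
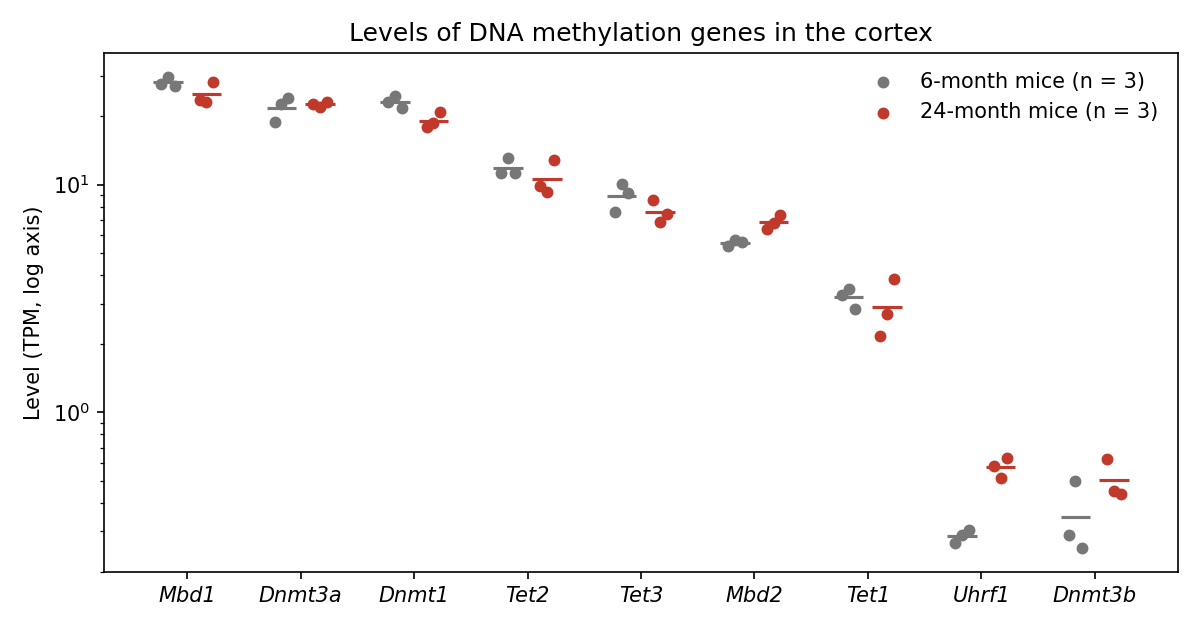
Level of each gene in each library (TPM, log axis), with genes from left to right by mean level, 6-month mice in grey, 24-month mice in red and the mean of each age (n = 3) as a line. The ages did not overlap for Dnmt1, Mbd2 and Uhrf1, and Uhrf1 and Dnmt3b lay below 1 TPM in every library.

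The libraries held 29495379 to 36494240 counts on genes. At 24 months more genes had at least 1 count (40208 to 43561 against 33974 to 35651), and the density of counts on 1408 olfactory, vomeronasal, taste and trace amine receptor genes, which cortex is not known to use widely, was 0.0469 to 0.0873 CPM (counts scaled to library size) per kb against 0.0143 to 0.0174 at 6 months. Neuron markers made up 4585 to 5654 TPM at 24 months and 5629 to 6172 TPM at 6 months, and none of the 8 was at 0 in any library. In edgeR's quasi-likelihood test with TMM scaling, 0 of 32905 genes tested (0.0%) passed the false discovery rate (FDR, Benjamini-Hochberg) of 1% that the study used, while 10096 had an unadjusted p under 0.05. The same level was passed by 1703 genes (5.18%) in edgeR's likelihood ratio test, 1122 (3.41%) in its exact test and 227 (0.69%) in DESeq2. A second level of 10% FDR is used below, at which 6041 genes (18.4%) passed, 8.33% lower and 10.0% higher at 24 months. Log2 fold changes had a median of 0.15 across the genes tested and of -0.14 across the 15761 that exceeded 1 CPM, and scaling by library totals instead of TMM put these medians at 0.33 and 0.05.

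At 10% FDR 1 of the 9 genes, Dnmt1, fell and 1, Uhrf1, rose with age, a share of members near that of all genes, so the count itself is no result about this group. At 1% FDR 0 members passed, by the quasi-likelihood test or by any of the 15 alternatives, which include DESeq2 and the other tests of edgeR. At an unadjusted p under 0.05 there were 4 members, Dnmt1, Tet3 and Mbd1 lower and Uhrf1 higher, against 30.7% of all genes (13.1% lower and 17.6% higher). The CPM ranges of the ages did not overlap for 4 of 9 members, with Dnmt1 and Mbd1 lower and Uhrf1 and Mbd2 higher, beside 36.3% of all genes (16.2% lower and 20.0% higher). With TPM this was so for 3 of 9 members, Dnmt1 lower and Uhrf1 and Mbd2 higher, beside 34.4% of all genes (8.65% lower and 25.8% higher). Both shares of members lie near the background. Of the 3 members at p under 0.05 that were lower, none kept that level with library totals instead of TMM, whereas Uhrf1 and Mbd2 then stood at p under 0.05, both higher, as did 25.4% of all genes.

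**Figure D2:**
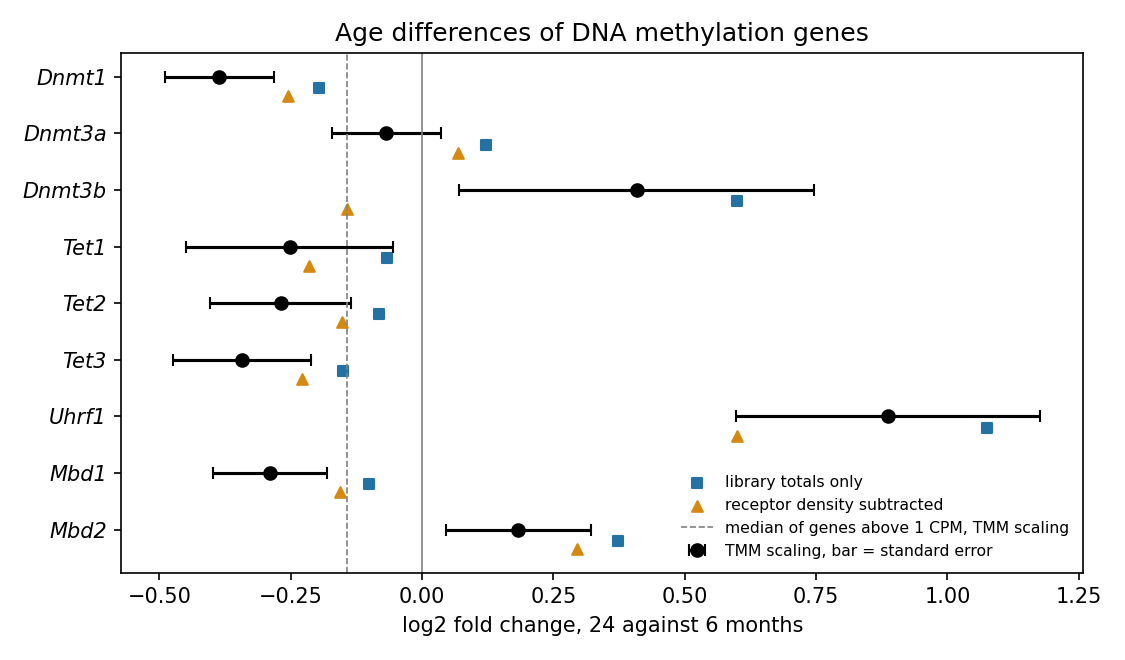
log2 fold change of each gene at 24 against 6 months, with TMM scaling (circles, bars are standard errors, 3 mice per age), with library totals only (squares) and after subtraction of the receptor gene density (triangles). Dnmt1 lay below 0 at -0.39 with TMM scaling and at -0.20 with library totals, Uhrf1 lay furthest above 0 at 0.89, and the dashed line is the median of genes above 1 CPM at -0.14.

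Dnmt1 (ENSMUSG00000004099.16, chr9:20907209-20959888, minus strand, GRCm38), the maintenance methyltransferase, was the writer that fell. Its level was 23.0, 24.5 and 21.7 TPM in the 6-month mice 10, 11 and 17, and 17.8, 18.6 and 20.9 TPM in the 24-month mice 2, 4 and 5. All 3 old mice thus lay below all 3 young mice, although 24-month mouse 5 was close to 6-month mouse 17. The mean level went from 23.1 TPM ± 1.41 (SD, n = 3) to 19.1 TPM ± 1.59, and the log2 fold change was -0.39 (SE 0.10, adjusted p by edgeR = 0.0617). An exact two-sided permutation test on log2 CPM gave p = 0.1, the smallest that 3 against 3 allows. Of the 15761 genes above 1 CPM, 12.2% had a lower log2 fold change than Dnmt1. With library totals instead of TMM the log2 fold change of Dnmt1 was -0.20 and the call was lost (adjusted p = 0.215), and over the 15 alternatives the adjusted p ran from 0.0364 to 0.321. After subtraction of the receptor gene density the log2 fold change was -0.26 and the call was lost (adjusted p = 0.321). With the scaling factors of the unsubtracted counts kept, it was -0.40 (adjusted p = 0.0912). The call was also lost with the filterByExpr filter of edgeR on low counts (-0.27, adjusted p = 0.141). So it was without 6-month mouse 10 (adjusted p = 0.158), 6-month mouse 11 (0.246), 24-month mouse 2 (0.129) or 24-month mouse 4 (0.261).

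Dnmt3a (ENSMUSG00000020661.15, chr12:3806007-3914443, plus strand), the main de novo enzyme of neurons, did not pass the test. It measured 18.9, 22.7 and 23.9 TPM at 6 months and 22.7, 21.8 and 23.0 TPM at 24 months. The old mice lay inside the range of the young ones. The log2 fold change was -0.07 (SE 0.10, adjusted p = 0.680), and its sign turned with library totals (0.12) and after subtraction of the receptor gene density (0.07). Of its exonic bases 0.80% are shared with the antisense gene Dnmt3aos, and without strand the reads of such a pair cannot be told apart.

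Dnmt3b (ENSMUSG00000027478.15, chr2:153649450-153687730, plus strand), a de novo enzyme used mostly in the embryo, had few counts in any library. The young mice had 13, 25 and 12 and the old mice 27, 21 and 20. The ages overlapped through 6-month mouse 11. The log2 fold change was 0.41 (SE 0.34, adjusted p = 0.431). At the count density of the receptor genes, Dnmt3b would have held 2.4 to 3.2 counts in the 6-month libraries and 7.9 to 13.1 in the 24-month libraries. After this density was subtracted, the log2 fold change was -0.14. Summed over 3 libraries, Dnmt3b had 50 counts at 6 months (95% Poisson interval 37.1 to 65.9) and 68 at 24 months (52.8 to 86.2), and these intervals cover counting error only.

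The 3 methyltransferases together made up 40.9 to 44.3 TPM at 24 months and 42.2 to 47.7 TPM at 6 months. The sums overlapped between ages. Dnmt1 held 54.6%, 51.4% and 47.3% of the sum in the young mice 10, 11 and 17 and 43.4%, 45.5% and 47.1% in the old mice 2, 4 and 5. The highest old mouse lay just under the lowest young mouse. The ratio of Dnmt1 to Dnmt3a was 1.22, 1.08 and 0.906 at 6 months and 0.787, 0.851 and 0.908 at 24 months, with overlap between 6-month mouse 17 and 24-month mouse 5. These ratios rest on values already given and were not tested.

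Uhrf1 (ENSMUSG00000001228.14, chr17:56303321-56323486, plus strand), the partner of Dnmt1 in maintenance methylation and a gene of dividing cells, was the member that rose. Counts were 10, 12 and 12 for the young mice 10, 11 and 17, and 21, 20 and 24 for the old mice 2, 4 and 5. The level was 0.266, 0.289 and 0.303 TPM at 6 months and 0.579, 0.517 and 0.630 TPM at 24 months. Every old mouse had more than every young mouse on either scale, at a very low level. The mean went from 0.286 TPM ± 0.019 (SD, n = 3) to 0.575 TPM ± 0.057, and the log2 fold change was 0.89 (SE 0.29, adjusted p by edgeR = 0.0844, exact permutation p = 0.1). Summed counts were 34 (95% Poisson interval 23.5 to 47.5) at 6 months and 65 (50.2 to 82.8) at 24 months.

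The density of counts on receptor genes was also higher in every old mouse than in every young mouse. At that density Uhrf1 would have held 2.0 to 2.6 counts per library at 6 months and 6.6 to 11.0 at 24 months. Summed over the 3 mice of an age, the counts above this expectation were 26.7 at 6 months and 37.9 at 24 months. After subtraction the log2 fold change was 0.60 and the call was lost (adjusted p = 0.552), in a fit that called 0.122% of all genes. With the scaling factors of the unsubtracted counts kept, it was 0.46 (adjusted p = 0.566). The call was also lost with DESeq2 (adjusted p = 0.215) and without a filter on low counts (0.114). So it was when any single mouse was left out, with adjusted p from 0.116 without 24-month mouse 5 to 0.201 without 6-month mouse 11. Of 10 markers of dividing cells, Top2a (log2 fold change 1.11, adjusted p = 0.0575) and Mki67 (0.88, 0.0845) rose and 8 did not pass the test, with a summed level of 14.4 to 15.5 TPM at 6 months and 15.2 to 16.9 TPM at 24 months and none at 0 in any library. Top2a had 34, 44 and 32 counts in the old mice 2, 4 and 5, of which the receptor gene density would give 23.2, 20.3 and 13.9. The part of these dividing-cell genes and of the receptor density in the Uhrf1 result was not tested.

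**Figure D3:**
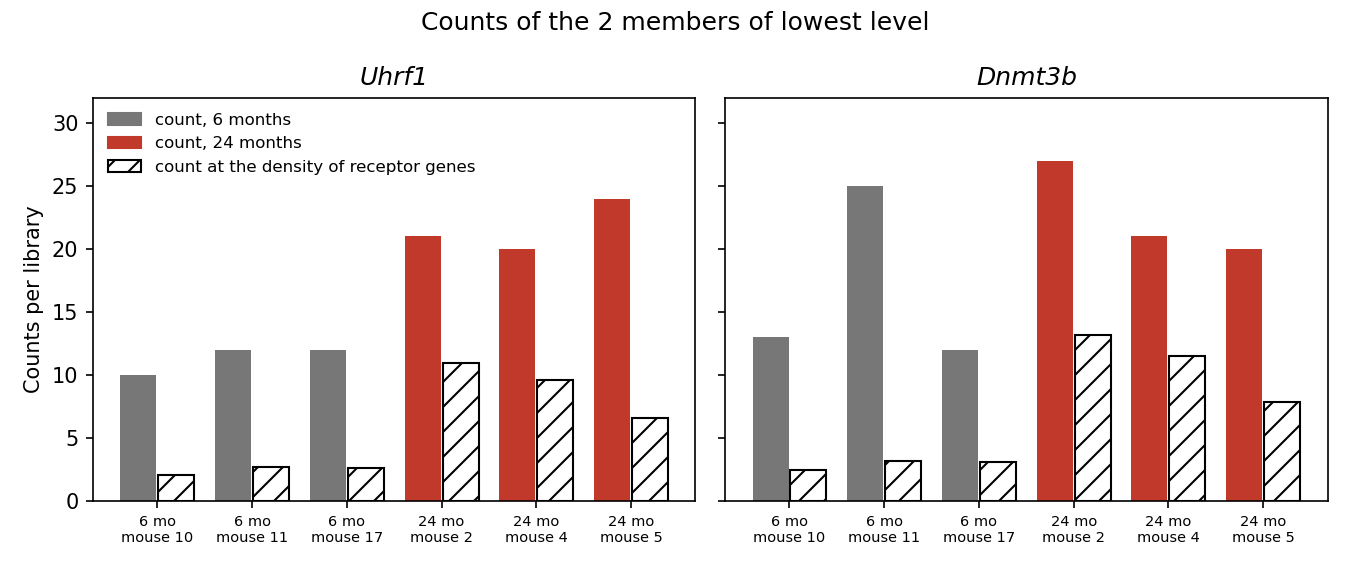
Counts of Uhrf1 and Dnmt3b in each library (solid bars, grey for 6 and red for 24 months) beside the count each would have had at the density of counts on receptor genes (hatched bars). For Uhrf1 both bars are higher at 24 months, with 20 to 24 counts against 6.6 to 11.0, and for Dnmt3b the deposited counts overlap between ages.

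Dnmt1 was called lower and Uhrf1 higher in the reported fit, and their ratio in TPM was 86.5, 84.9 and 71.5 at 6 months and 30.8, 36.0 and 33.1 at 24 months. As the ages already stood apart in each gene, in opposite directions, they had to stand apart in this ratio too. It carries the low counts of Uhrf1 with it. This ratio was not tested. The receptor gene density would make up at most 1.7% of the counts of Dnmt1, and 27.3% to 52.2% of those of Uhrf1 at 24 months. After its subtraction with TMM factors taken anew, both genes lost their call. With the scaling factors of the unsubtracted counts kept, Dnmt1 was called (adjusted p by edgeR = 0.0912) and Uhrf1 was not (0.566).

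None of the erasers passed the test at 10% FDR. Tet3 (ENSMUSG00000034832.15, chr6:83362373-83459084, minus strand), a dioxygenase that neurons express, came nearest, with 7.55, 10.1 and 9.16 TPM at 6 months and 8.59, 6.83 and 7.44 TPM at 24 months. The ages overlapped, as 6-month mouse 10 lay below 24-month mouse 2. The log2 fold change of Tet3 was -0.34 (SE 0.13, unadjusted p = 0.0266, adjusted p = 0.118), and the exact permutation test gave p = 0.2. The log2 fold change was -0.21 without 6-month mouse 11, -0.23 without 24-month mouse 4 and -0.15 with library totals. Of the 15761 genes above 1 CPM, 17.1% had a lower log2 fold change than Tet3, 28.1% than Tet2 and 30.9% than Tet1.

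Tet2 (ENSMUSG00000040943.12, chr3:133463679-133545139, minus strand), the eraser of highest level, measured 11.2, 13.1 and 11.2 TPM at 6 months and 9.87, 9.25 and 12.8 TPM at 24 months. Tet1 (ENSMUSG00000047146.17, chr10:62804570-62908996, minus strand), the eraser of lowest level, measured 3.29, 3.47 and 2.84 TPM at 6 months and 2.16, 2.7 and 3.86 TPM at 24 months. In both genes 24-month mice 2 and 4 lay below every young mouse, while 24-month mouse 5 lay within the young range for Tet2 and above it for Tet1. The log2 fold change was -0.27 (SE 0.13, adjusted p = 0.200) for Tet2 and -0.25 (SE 0.20, adjusted p = 0.405) for Tet1. Without 24-month mouse 5 both passed, Tet2 at -0.42 (adjusted p = 0.0437) and Tet1 at -0.51 (adjusted p = 0.0628), in a comparison in which 25.6% of all genes passed, 11.6% lower. Other mice moved the values the other way, to -0.07 for Tet1 without 24-month mouse 2 and to -0.13 for Tet2 without 24-month mouse 4 (adjusted p = 0.828 and 0.649). With library totals they were -0.07 and -0.08. Tet2 shares 0.25% of its exonic bases with the antisense gene Gm42567.

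The summed Tet level was 22.1, 26.7 and 23.2 TPM at 6 months and 20.6, 18.8 and 24.1 TPM at 24 months. Divided by the summed Dnmt level it was 0.523, 0.560 and 0.507 at 6 months and 0.501, 0.459 and 0.544 at 24 months. The ages overlapped in the sum and in this ratio. Tet3 relative to Dnmt3a, by TPM, was 0.400, 0.445 and 0.383 in young mice and 0.379, 0.313 and 0.324 in old mice. The gap between the ages was narrow, and these ratios were not tested.

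Of the methyl-CpG readers Mbd1 and Mbd2, neither passed at 10% FDR. Mbd1 (ENSMUSG00000024561.11, chr18:74267605-74282732, plus strand), a methyl-CpG-binding repressor, measured 27.7, 29.8 and 27.2 TPM at 6 months and 23.4, 23.2 and 28.3 TPM at 24 months. As for Tet1 and Tet2, 24-month mouse 5 stood above the other old mice, here inside the young range in TPM. On the TMM-scaled CPM scale all old mice lay below all young ones. The log2 fold change was -0.29 (SE 0.11, unadjusted p = 0.0239, adjusted p = 0.113). Of the 15761 genes above 1 CPM, 24.8% had a lower log2 fold change than Mbd1. Without 24-month mouse 5 Mbd1 passed with -0.39 (adjusted p = 0.0412), whereas it measured -0.19 without 24-month mouse 4 (0.454) and -0.10 with library totals (0.533).

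Mbd2 (ENSMUSG00000024513.16, chr18:70568189-70626131, plus strand), the methyl-CpG-binding subunit of a NuRD complex, went the other way. It measured 5.40, 5.71 and 5.59 TPM at 6 months and 6.36, 6.78 and 7.38 TPM at 24 months. Every old mouse lay above every young mouse, with a log2 fold change of 0.18 (SE 0.14, adjusted p = 0.387, exact permutation p = 0.1). With library totals instead of TMM the log2 fold change of Mbd2 was 0.37 at an adjusted p of 0.119. The ratio of Mbd1 to Mbd2 in TPM was 5.13, 5.23 and 4.86 in young mice and 3.69, 3.42 and 3.84 in old mice, without overlap, and was not tested.

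The genes whose log2 CPM over the 6 libraries was most like that of a member were named for the highest writer, eraser and reader, among 18904 genes with a mean of at least 1 TPM. For Dnmt3a these were Med25 (Pearson r = 0.98), Adipor2 (r = 0.98) and Ephb3 (r = 0.97), for Tet2 Cspp1, Pcdha2 and Gm43737 (r = 0.99 or more in each), and for Mbd1 Zfp458, Clcn7 and Trappc12 (r = 1.00 in each after rounding). Such likeness was common, as 137, 437 and 1419 genes had an r above 0.9 with Dnmt3a, Tet2 and Mbd1. Among the members, Mbd1 had an r of 0.96 with Dnmt1 and of 0.96 with Tet2. All of these r describe 6 libraries that share the age difference.

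Genes that work with these enzymes or under DNA methylation were read from 10 lists. Of 108 genes 106 were tested, and 25 (23.6%) passed at 10% FDR, 22 lower and 3 higher, beside 18.4% of all genes, 8.33% lower and 10.0% higher. That background spans genes of every level. No share was taken over genes above 1 CPM alone, whose median log2 fold change lay lower, so these shares do not compare genes of like level. The median log2 fold change was below 0 in 10 of 10 lists, beside 0.15 over all genes, but below the median of genes above 1 CPM (-0.14) in 6 of 10. When library totals replaced TMM, 5 of the 10 medians were above 0. With library totals instead of TMM 11 of the 106 passed, 3 lower and 8 higher, so the balance of directions turned with the scaling. Over all genes, library totals left 13.5% called, 0.982% lower and 12.5% higher. Single mice weighed heavily, as 0 of the 106 passed without 6-month mouse 10, 6-month mouse 11 or 24-month mouse 4, 3 without 24-month mouse 2, 9 without 6-month mouse 17 and 36 without 24-month mouse 5. After subtraction of the receptor gene density 1 of the 106 passed.

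The 3 lists closest to the members held no call with TMM scaling. Of 7 tested partners of maintenance methylation, among them Pcna, the sliding clamp of replication, and Hells, a chromatin remodeler, 0 passed the quasi-likelihood test at 10% FDR, 0 had an unadjusted p under 0.05, and the other tests of edgeR and DESeq2 called 0. The log2 fold changes were -0.20 for Pcna, -0.19 for Cdca7, 0.11 for Hells and -0.15 for Cdca7l, with a list median near 0. Of 8 partners of de novo methylation 0 passed at 10% FDR in any of these tests, with 4 lower at a quasi-likelihood p under 0.05 before adjustment. These were Ehmt1 (-0.31, adjusted p = 0.101), Nsd2 (-0.30, 0.111), Nsd1 (-0.23, 0.122) and Zfp57 (-0.33, 0.151), histone methyltransferases except for Zfp57, a zinc finger protein that protects imprints. With library totals Ehmt2, a histone methyltransferase of this list, was called higher (0.39, adjusted p = 0.0856). Of 8 other methyl-CpG readers 0 passed in any of these tests, with 1, Mbd5, at an unadjusted p under 0.05 (log2 fold change -0.26, adjusted p = 0.149). The others of smallest p were Mbd4 (-0.29, 0.171), Zbtb38 (-0.30, 0.216) and Mbd6 (0.18, 0.537).

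Of the proteins with a CXXC domain, which binds CpG without methyl groups, 3 of 7 fell. They were Kdm2b (-0.40, adjusted p = 0.0669) and Kdm2a (-0.38, 0.0687), histone demethylases, and Cxxc4 (-0.32, 0.0820), whose gene lies near Tet2. Kmt2b, a histone methyltransferase of the same list, measured 0.36 (adjusted p = 0.104). With library totals instead of TMM none of the 3 was called lower and Kmt2b was called higher (0.55, adjusted p = 0.0604). Kdm2a and Kdm2b were called in 6 of 15 alternatives and Cxxc4 in 3.

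Base excision and active demethylation, the steps after Tet, had 7 of 13 genes lower and a median log2 fold change of -0.33. The other tests called fewer of the 13, 5 by the likelihood ratio test and 4 each by the exact test of edgeR and DESeq2. Gadd45a, a stress-induced gene that has been tied to active demethylation, was counted 405, 583 and 413 times in young mice against 177, 217 and 199 times in old mice. Its level fell from a mean of 28.4 to 12.6 TPM without overlap (log2 fold change -1.28, SE 0.15, adjusted p = 0.0313). Parp1, a sensor of strand breaks, fell with -0.42 (adjusted p = 0.0564), Smug1, a uracil glycosylase, with -0.40 (0.0668), and Ogt, a glycosyltransferase that binds Tet proteins, with -0.41 (0.0759). Tdg, the glycosylase that excises the further oxidized forms, Polb and Lig3 were the other 3. Of the 7 only Gadd45a stayed called lower with library totals (-1.09, adjusted p = 0.0326), and it was called in 12 of 15 alternatives, including 3 of the 6 fits without 1 mouse. The other 6 genes were called in 1 (Tdg and Polb) to 8 (Parp1) of the 15. Neil1, a glycosylase of the same list, was called higher with library totals (0.51, adjusted p = 0.0721).

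The supply lines of both reactions were read likewise. In the methyl donor cycle 3 of 12 fell. Mat2a, which makes S-adenosylmethionine, was counted 5099, 6716 and 5095 times at 6 months against 3602, 3994 and 4292 at 24 months, and its log2 fold change was -0.55 (SE 0.11, adjusted p = 0.0518). Mtrr, the reductase that keeps methionine synthase active, fell with -0.60 (0.0527) and Mthfd1, a folate enzyme, with -0.37 (0.0670). Mat2a and Mtrr stayed called with library totals (adjusted p = 0.0769 and 0.0901), and each was called in 10 of 15 alternatives, including 2 of the 6 fits without 1 mouse. Mat2b, next by p, measured -0.22 (adjusted p = 0.159).

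Of 8 genes that make or use up 2-oxoglutarate, the cosubstrate of Tet enzymes, 2 fell. They were Idh1 (-0.32, adjusted p = 0.0747) and Idh3g (-0.26, 0.0811), with Idh3a (-0.26, 0.103) and Idh3b (-0.21, 0.120) next. In the NuRD complex around Mbd2, 2 of 12 fell, the histone-binding subunits Rbbp4 (-0.32, 0.0708) and Rbbp7 (-0.29, 0.0811), with Mta2 (-0.15, 0.265) and Gatad2b (-0.14, 0.348) next. None of these 4 calls was kept with library totals, and over the 15 alternatives Idh1 and Rbbp4 were called in 3, Idh3g in 1 and Rbbp7 in 0.

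Targets of DNA methylation gave calls in both directions. Germline genes that promoter methylation is known to silence in somatic cells were not all silent here. Brdt had 309 to 354 and Dazl 184 to 240 counts at 6 months, and 3 of the 12 listed had at most 3 in every 6-month library. Of the 11 tested, Tdrd1 fell, from 49, 57 and 57 counts in young mice to 38, 25 and 20 in old mice (log2 fold change -1.01, adjusted p = 0.0618). Sycp1, of the synaptonemal complex, was called higher with 3, 0 and 0 counts against 13, 7 and 10 (adjusted p = 0.0619), and Asz1 with 2, 4 and 1 against 15, 10 and 6 (0.0694). At the density of the receptor genes Sycp1 would have held 9.16, 8.02 and 5.47 counts and Asz1 7.28, 6.38 and 4.36 counts in the old mice 2, 4 and 5. The part of that density in these calls was not tested. Stra8, next by p, had 2, 0 and 2 against 8, 5 and 3 counts (adjusted p = 0.154). Over the 15 alternatives Tdrd1 was called in 8, Sycp1 in 7 and Asz1 in 6.

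Of 20 imprinted genes, which are expressed from 1 parental allele under a methylated control region, 4 fell and 1 rose. Mest fell from a mean of 33.7 to 23.7 TPM (log2 fold change -0.63, adjusted p = 0.0587), Rasgrf1 from 260.5 to 209.8 TPM (-0.43, 0.0597) and Plagl1 from 6.88 to 5.26 TPM (-0.50, 0.0619), and Grb10 was the other. Ndn, a maternally imprinted gene of neurons, rose from 139 to 206 TPM (0.45, adjusted p = 0.0666). With library totals none was called lower, while 3 were called higher. Over the 15 alternatives these 5 were called in 4 (Grb10) to 9 (Mest).

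**Figure D4:**
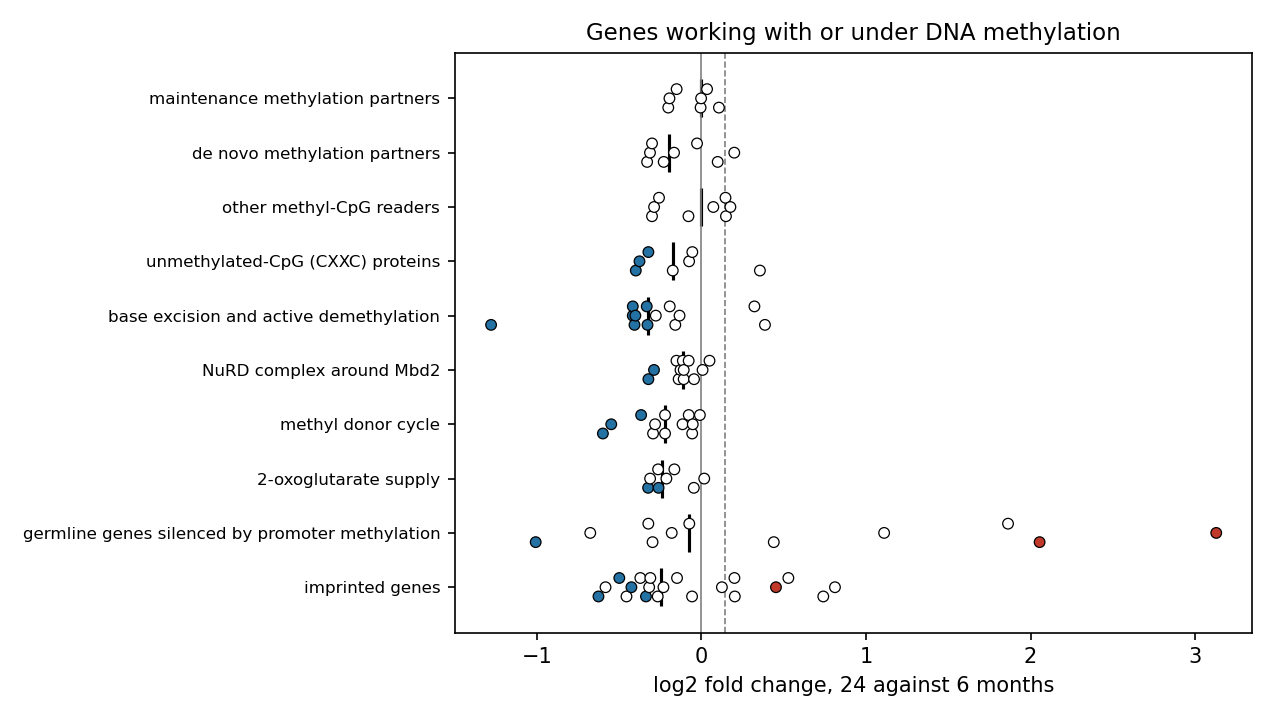
log2 fold change at 24 against 6 months (TMM scaling) of each tested gene of 10 lists, 1 list per row, with genes past 10% FDR filled (blue lower, red higher), list medians as vertical bars and the median of all genes, 0.15, as a dashed line. Blue points are 7 of 13 genes in base excision and active demethylation, and red points occur only among germline and imprinted genes.

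Marker lists of the other cell types of the tissue were read in the same fit at 10% FDR. At that level 8.33% of all genes were lower and 10.0% higher. Of 8 neuron markers 3 fell (Tubb3, Syt1 and Camk2a). Of 7 astrocyte markers 1 rose (Gfap), of 5 markers of oligodendrocyte precursors 1 rose and 1 fell, and of 7 microglia markers 1 rose and 1 fell. Of 5 tested markers of B cells and plasma cells 3 rose, and of 6 T cell markers 2 rose. The T cell calls lay near the receptor gene density, with 6, 14 and 4 counts of Cd8a in the old mice 2, 4 and 5 against 9.36, 8.20 and 5.60 at that density, and 9, 16 and 7 of Cd3g against 8.42, 7.37 and 5.03. Of 5 red blood cell markers 1 fell. With library totals instead of TMM 0 neuron and 0 red blood cell markers were called. The same scaling called 2 astrocyte, 2 precursor and 2 microglia markers higher, and 1 precursor marker lower. It also called 4 markers of B cells and plasma cells and 2 of T cells higher. For 7 oligodendrocyte, 5 endothelial, 5 choroid plexus and 6 meninges markers 0 passed in edgeR's quasi-likelihood test, 0 had an unadjusted p under 0.05, and the other tests of edgeR and DESeq2 called 0. No marker was at 0 in every library, and the part of cell makeup in the results above was not tested.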

How the data were processed

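RNA-seq was analysed for the cortex of 6 male mice. The study trimmed reads with Trim Galore 0.6.4, checked them with FastQC 0.11.8, mapped them to GRCm38 with STAR 2.7.3a and counted them on exons with featureCounts (Subread 2.0.0), per the labels and the methods. No strand option is among the counting options the methods list, and the default of featureCounts ignores strand. The methods list fractional counting of reads with several positions, and the deposited counts are nonetheless whole, so how such reads were counted is unsure, above all in large gene families. The authors deposited counts (100% whole numbers) and TPM values, which they computed from the counts and gene lengths, for 55421 genes per mouse. Depth was 29495379 to 36494240 counts.

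Age was tested on the counts with edgeR 4.0.16 in R 4.3.3 (TMM, at least 10 counts over the 6 libraries, quasi-likelihood test, no covariates), with Benjamini-Hochberg adjustment over all 32905 genes. The study's methods name edgeR and an FDR of 1%, but no test. Samples are single mice. The p-values weigh the age difference against the spread between mice, which was estimated with information shared across genes. On simulated counts (31691 genes) the test at 10% FDR recovered 18 of 100 genes changed 1.5-fold and 94 of 100 changed 3-fold. The 28 false calls were a larger share of the calls than the 10% aimed at. Only these genes were changed, as many up as down, whereas 6041 genes were called in the data. The shares recovered therefore need not hold for the data. Log2 CPM used a prior count of 2. Receptor gene density is the summed count over summed exonic length of 1408 genes, after the top 5% were left out. Alternatives were other tests (DESeq2 1.42.0, 5745 adjusted p-values not given), scaling, filters, each mouse left out, and subtraction of that density. Python 3.11.15, pandas 2.3.3, numpy 2.4.6, scipy 1.17.1 and matplotlib 3.10.9 were used. Of 55421 identifiers 55240 matched GENCODE vM21, an earlier release than the study's. Members and lists were chosen with earlier results of these data known. Named were the members, up to 4 genes of smallest p per list, and 3 genes of like pattern for the highest writer, eraser and reader. Others that a count of 5 or fewer covers were named after their values were seen. Coordinates are GENCODE's on GRCm38.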

Additional observations from a re-analysis of the deposited data

How the results depend on the processing

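No paired analysis was possible because the 2 ages share no replicate numbers. The number of genes at 1% FDR was 0 in the reported fit, 1703 by the likelihood ratio test, 1122 by the exact test of edgeR, 227 by DESeq2, 42 without a filter on low counts, and 0 to 13 when 1 mouse was left out. At 10% FDR it was 6041, with 3048 by DESeq2, 1538 with filterByExpr, 4014 without a filter, and 0 (without 6-month mouse 10 or 24-month mouse 4) to 7997 (without 24-month mouse 5). Of the 9 members 2 were called at 10% FDR, against 1 by DESeq2, with library totals, with filterByExpr or without a filter, 0 after subtraction of the receptor gene density, 1 after subtraction with the scaling factors of the unsubtracted counts (an alternative chosen after seeing the data), and 0 to 4 when 1 mouse was left out. At an unadjusted p under 0.05 there were 4 members, against 2 with library totals, 1 after subtraction, and 1 to 5 when 1 mouse was left out. Pathway genes called were 25, against 11 with library totals and, in alternatives added after seeing the data, 16 by DESeq2, 5 with filterByExpr, 13 without a filter, 1 after subtraction, 14 with kept scaling factors, and 0 to 36 when 1 mouse was left out. Dnmt1 was called in 8 of 15 alternatives and Uhrf1 in 5 of 15. The sign of Dnmt3a turned with library totals (0.12), filterByExpr (0.046), subtraction (0.0681), and without 6-month mouse 11 (7.41e-05) or 17 (0.0041), within a range of -0.16 to 0.0041 when 1 mouse was left out. That of Dnmt3b turned with subtraction (-0.14, and -0.29 with kept scaling factors). Tet1, Tet2, Tet3, Mbd1, Mbd2, Dnmt1 and Uhrf1 kept their sign in all 15. Causes of these shifts were not tested. Counts of 10 to 27 per library limit what can be said of Uhrf1 and Dnmt3b.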
